A study of Rattus norvegicus with 6 samples.

Results

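The enzymes and the transporter described here finish protein digestion at the brush border, the carpet of microvilli on the absorptive cells of the small intestine. They are 9 genes chosen by name: Ace, Mme, Mep1a, Mep1b, Anpep, Enpep, Dpp4 and Ggt1, which encode peptidases of the cell surface, and Slc15a1, which encodes the peptide transporter. All 9 were measured, each by a single row of the array that carried its symbol alone, among 14506 genes in all. They were profiled in the ileum, where the small intestine ends, of 6 Zucker fa/fa rats aged 20 weeks. The fa/fa genotype disables the leptin receptor and makes the rats obese, and it was shared by both groups. In 3 rats a duodenum-jejunum bypass (DJB) joined the jejunum to the start of the duodenum, so that food skipped the upper bowel. Sham surgery in the other 3 rats cut the bowel and joined it again in its normal course. Ileum was taken 14 days after surgery, and the RNA of each rat was hybridised to 1 whole-transcript array, so that each group has 3 biological replicates. The question that the comparison addresses here is which of these genes differed in the ileum after the bypass.

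Proteins reach the ileum as peptides that pancreatic enzymes have cut. Aminopeptidases and dipeptidases of the brush border shorten these peptides from their ends, endopeptidases such as the meprins and neprilysin cut them inside, and the products enter the cell as free amino acids or, through Slc15a1, as short peptides carried along with protons. Several of the same enzymes also act on peptide hormones, such as angiotensins, kinins and incretins.

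Values are log2 expression levels after RMA, a method that corrects background, equalises the distributions of the arrays and summarises the probes of a gene. Differences are DJB minus sham on that scale with their standard error (SE), and "rose" or "fell" is said where the limma adjusted p over all 14506 genes was under 0.05. The 6 arrays had medians of 6.19, 6.08 and 6.10 for DJB 1 to 3 and 6.09, 6.11 and 6.09 for sham 1 to 3, and all 9 genes lay above these medians on every array. DJB 1 had the highest median and, of the arrays of its group, the highest value in 57.6% of all genes. The number of arrays limits the precision. The tissue carried its defining ileal transcripts, with the bile acid binding protein gene Fabp6 at 13.8, 13.9 and 14.0 in DJB and 13.4, 13.6 and 13.7 in sham. Smooth muscle genes were measured too, at a mean level of their 5 markers of 10.9 to 11.1 in DJB and 10.5 to 11.0 in sham, and whether mucosa was separated from the wall is not stated in the labels. In such tissue, fewer cells of a type and less RNA per cell cannot be told apart.

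Of the 9 genes, Ace fell and the other 8 did not pass the threshold. Across all genes tested 0.772% passed, 0.379% lower and 0.393% higher in DJB. In Ace, Mme and Slc15a1 every DJB array lay below every sham array, which was so for 6.56% of all genes (21.1% counting either direction). No gene of the 9 lay wholly higher in DJB, as 14.5% of all genes did. The median difference of the 9 was -0.09 (between -0.17 without sham 1 and -0.0016 without DJB 3), where that of all genes tested was 0.05. Rescaling the arrays left these 3 genes without overlap. Leaving out 1 array cannot make separated groups overlap, so it is no test of these 3 genes. With 1 array left out, 29.2% to 32.5% of all genes were without overlap in either direction.

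**Figure D1:**
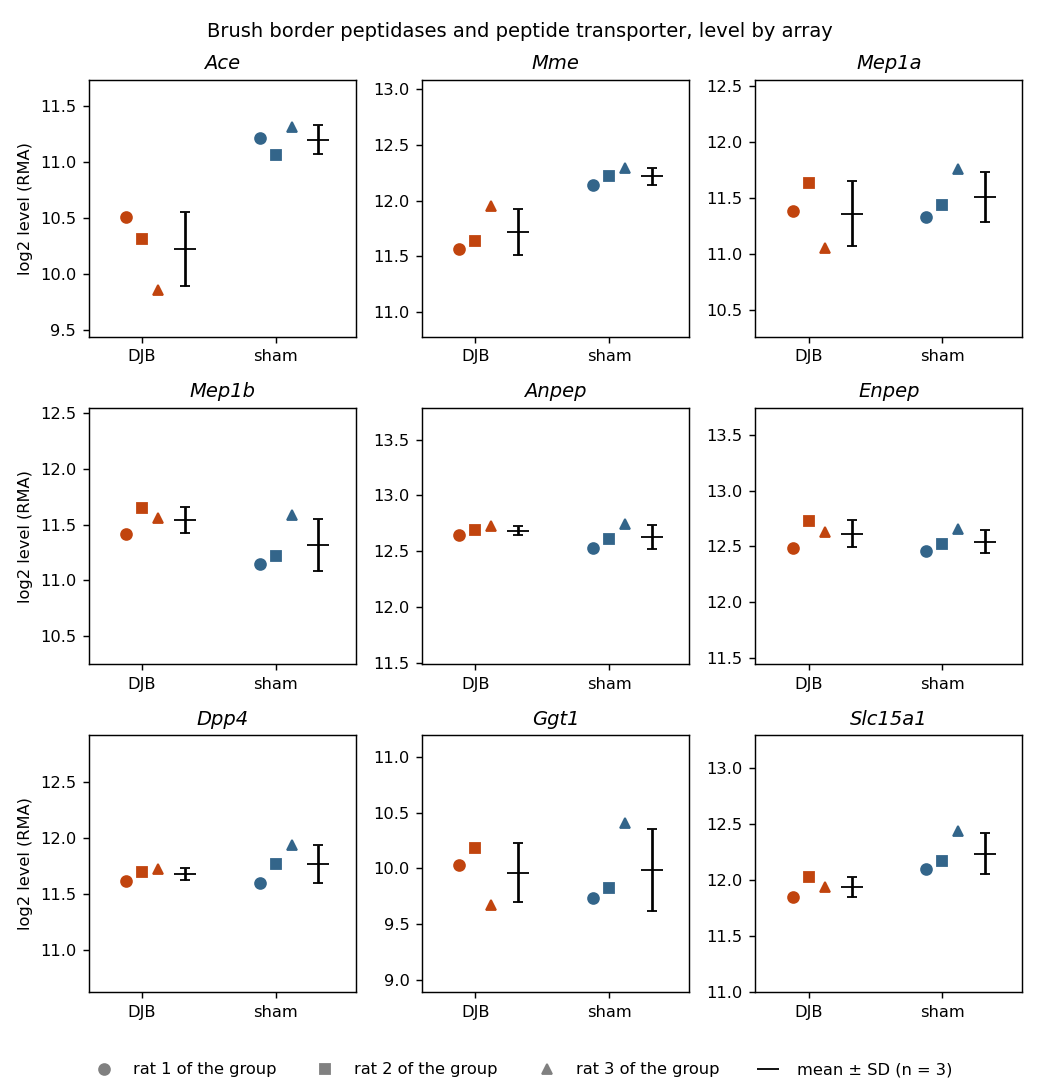
Log2 level (RMA, vertical axis) of the 9 genes on each array, DJB left and sham right, with 1 marker shape per rat number and the mean ± SD of 3 arrays beside each group. Every panel spans the same height on the log2 scale. In Ace, Mme and Slc15a1 the DJB points lie below all sham points, with Ace the farthest apart, and in the other 6 genes the groups overlap.

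Ace encodes angiotensin-converting enzyme, which removes dipeptides from the C-terminal end of peptides at the brush border and on blood vessels. Its levels were 10.51, 10.31 and 9.86 in DJB 1 to 3, against 11.22, 11.06 and 11.32 in sham 1 to 3. The highest DJB array lay 0.56 below the lowest sham array, and DJB 3 was the lowest of all. The means were 10.22 ± 0.33 in DJB and 11.20 ± 0.13 in sham (SD, n = 3 each). Ace fell by 0.98 ± 0.16 (SE; limma adjusted p = 0.0333), which is 1.97-fold lower in DJB with a 95% interval of 1.53 to 2.54. The size of the fall was between 0.79 and 1.12 whichever array was left out, but the call ended if any sham array or DJB 2 was removed (largest adjusted p = 0.149). Without DJB 1 the adjusted p was 0.0209 and without DJB 3 it was 0.0474.

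Blood vessels also express Ace. Of the 5 endothelial markers listed, 4 were measured (Pecam1, Cdh5, Kdr and Tek), and none passed the threshold. Their differences ran from -0.09 to 0.04. Their mean level was 7.27, 6.97 and 6.74 in DJB 1 to 3, the same order as Ace, and 7.04, 7.01 and 7.05 in sham 1 to 3. That DJB order was not particular to endothelium. Fibroblast markers (9.57, 9.37 and 8.99) and absorptive cell markers (12.123, 12.041 and 11.785) had it too, while macrophage markers (7.77, 7.52 and 7.66) did not. The part of the endothelial markers in the Ace values was not tested. Relative to the structural genes of the microvillus, Ace differed by -0.93 (adjusted p = 0.0022), so its difference was about as large on that scale.

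Mme encodes neprilysin, a membrane endopeptidase that cuts small peptides on the amino side of hydrophobic residues. Its levels were 11.57, 11.64 and 11.95 in DJB 1 to 3, against 12.14, 12.22 and 12.29 in sham 1 to 3. DJB 3, the lowest array for Ace, was the highest DJB array for Mme, and it lay 0.19 below the lowest sham array. The difference was -0.50 ± 0.12 (SE), or 1.41-fold lower in DJB with a 95% interval of 1.17 to 1.70. It did not pass over all genes (limma adjusted p = 0.122). With eBayes fitted by an intensity trend and robustly, the same difference passed (adjusted p = 0.0221). With 1 array left out it never passed (adjusted p up to 0.318).

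Slc15a1 is the proton-coupled transporter that brings short peptides into the absorptive cell. Its levels were 11.85, 12.03 and 11.94 in DJB 1 to 3, against 12.10, 12.17 and 12.44 in sham 1 to 3. The groups were separated by 0.06 only, less than the SD within either group (0.09 in DJB and 0.18 in sham). The difference was -0.30 ± 0.12 (SE), or 1.23-fold lower in DJB with a 95% interval of 1.02 to 1.47, and it did not pass (limma adjusted p = 0.295).

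The promoters of these 3 genes are shown because their DJB and sham values did not overlap, and so that their sequence can be set beside the differences. Each is the 300 bases from 250 before to 50 after the gene's start, 5′ to 3′ on the gene's own strand, from RefSeq on the assembly GRCr8. Capitals mark matches on either strand to 4 short motifs of factors known in intestinal or general transcription: the core TTTAT bound by CDX factors, the core AGATAA bound by GATA factors, the HNF4 core CAAAG and the SP1 core GGGCGG.
Ace, chr10:91409879-91410178, strand +: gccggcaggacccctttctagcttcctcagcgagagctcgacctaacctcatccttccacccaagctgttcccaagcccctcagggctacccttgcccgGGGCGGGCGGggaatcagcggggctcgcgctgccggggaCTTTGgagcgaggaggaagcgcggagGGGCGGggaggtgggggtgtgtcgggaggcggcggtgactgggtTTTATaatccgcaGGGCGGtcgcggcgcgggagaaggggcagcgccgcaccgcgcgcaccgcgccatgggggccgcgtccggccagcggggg
Mme, chr2:149872247-149872546, strand +: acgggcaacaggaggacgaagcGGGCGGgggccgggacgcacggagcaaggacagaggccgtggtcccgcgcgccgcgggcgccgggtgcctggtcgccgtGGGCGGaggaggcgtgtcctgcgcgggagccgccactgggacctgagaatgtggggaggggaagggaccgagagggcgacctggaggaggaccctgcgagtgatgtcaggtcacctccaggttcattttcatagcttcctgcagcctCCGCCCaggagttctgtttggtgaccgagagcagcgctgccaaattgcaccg
Slc15a1, chr15:104949295-104949594, strand -: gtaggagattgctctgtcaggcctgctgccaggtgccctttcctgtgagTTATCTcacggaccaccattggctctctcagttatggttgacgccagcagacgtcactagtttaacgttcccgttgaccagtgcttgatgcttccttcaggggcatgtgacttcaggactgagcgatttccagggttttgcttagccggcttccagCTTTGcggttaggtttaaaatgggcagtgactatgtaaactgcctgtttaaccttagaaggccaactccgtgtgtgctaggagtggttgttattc

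The Ace window held 4 matches to GGGCGG, of which those that begin at positions -151 and -147 relative to the start overlap, as well as 1 match to TTTAT that begins at position -42 and 1 to CAAAG. The Mme window held 3 matches to GGGCGG and none of the other motifs. The Slc15a1 window held 1 match to AGATAA and 1 to CAAAG. The SP1 core was found in these 2 of the 9 genes, Ace and Mme, and in 33.06% of the 33469 rat promoters of the same length. The G and C content of the windows was 72.3% for Ace, 68.7% for Mme and 50.7% for Slc15a1. TTTAT was in 3 of the 9 (42.54% of all promoters), AGATAA in 1 (11.58%) and CAAAG in 7 (53.82%). These are matches of letters, not binding sites.

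**Figure D2:**
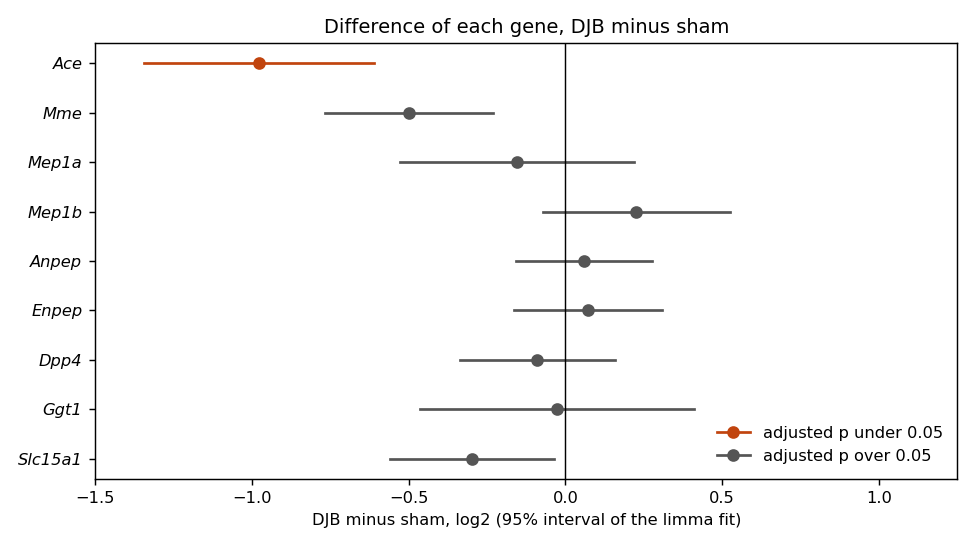
Difference between DJB and sham (log2, horizontal axis) for each of the 9 genes, as a point with the 95% interval of the limma fit over 3 arrays per group. The interval of Ace runs from -1.34 to -0.61 and Ace alone passed the adjusted threshold, while 6 of the intervals span 0.

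The meprins are endopeptidases built from an alpha subunit (Mep1a) and a beta subunit (Mep1b), and beta anchors the complex in the membrane. Mep1a lay at 11.39, 11.63 and 11.05 in DJB 1 to 3, against 11.33, 11.44 and 11.76 in sham 1 to 3. Mep1b lay at 11.42, 11.65 and 11.56 in DJB, against 11.15, 11.22 and 11.58 in sham. Each gene alone overlapped between the groups. Mep1a differed by -0.15 ± 0.16 (SE, 95% interval -0.53 to 0.22) and Mep1b by 0.23 ± 0.13 (SE, 95% interval -0.07 to 0.52), and neither passed (limma adjusted p = 0.726 and 0.473). With 1 array left out, Mep1a ran from -0.29 (without DJB 2) to -0.0016 (without DJB 3) and was -0.0286 without sham 3, while Mep1b ran from 0.14 (without sham 1) to 0.36 (without sham 3).

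The within-array difference Mep1a minus Mep1b was -0.03, -0.01 and -0.51 in DJB 1 to 3, against 0.19, 0.22 and 0.18 in sham 1 to 3. The sham values lay within 0.04 of each other and all DJB values lay lower, DJB 3 by the most. The difference was -0.38 and was -0.22 without DJB 3. An exact two-sided permutation test gave p = 0.1, the smallest that 3 against 3 arrays allow, and 0.2 after adjustment over the 2 pairs tested (Anpep with Enpep was the other).

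The aminopeptidases remove residues from the N-terminal end. Anpep, aminopeptidase N, takes mostly neutral residues, and Enpep, aminopeptidase A, takes acidic residues. Anpep lay at 12.65, 12.69 and 12.72 in DJB, against 12.53, 12.61 and 12.74 in sham. Enpep lay at 12.49, 12.73 and 12.63 in DJB, against 12.46, 12.52 and 12.65 in sham. The 2 groups overlapped in both genes, and the arrays of each gene stayed within 0.21 and 0.27 of each other. The differences were 0.06 ± 0.10 for Anpep (SE, 95% interval -0.16 to 0.28) and 0.07 ± 0.10 for Enpep (SE, 95% interval -0.17 to 0.31), and both turned negative (-0.02 and -0.01) when the arrays were quantile normalised again. These intervals leave out a change as large as that of Ace in either direction. Both genes lay high on the scale, whose highest values were 13.8 to 14.1, and differences near its top can be understated. Whether these were was not tested. Anpep minus Enpep within an array was 0.16, -0.04 and 0.09 in DJB and 0.07, 0.09 and 0.09 in sham, a difference of -0.01 (exact two-sided permutation p = 1.0).

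Dpp4, dipeptidyl peptidase, releases dipeptides from the N-terminal end, mostly after proline, and inactivates incretin hormones. Its levels were 11.61, 11.70 and 11.72 in DJB, against 11.60, 11.76 and 11.94 in sham. The DJB values lay inside the sham range, and the difference of -0.09 ± 0.11 (SE, 95% interval -0.34 to 0.16) did not pass (limma adjusted p = 0.762). T cells also carry Dpp4, and their 5 markers, none of which passed, had mean levels of 6.54 to 7.34 in DJB and 6.62 to 6.82 in sham. Their part in the Dpp4 values was not tested.

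Ggt1 encodes gamma-glutamyltransferase, which splits glutathione outside the cell. It lay at 10.03, 10.18 and 9.67 in DJB, against 9.74, 9.82 and 10.41 in sham. DJB 3 was the lowest and sham 3 the highest of the 6 arrays, and the SD was 0.26 in DJB and 0.37 in sham, the widest sham spread of the 9 genes. The difference was -0.03 ± 0.19 (SE, 95% interval -0.46 to 0.41). Its sign turned without sham 3 (0.18) or DJB 3 (0.12), when arrays were weighted (0.07) and relative to the microvillus genes (0.02), so no direction can be given.

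The genes varied together among the sham rats. Sham 3 was the highest sham array for all 9 genes, where it was the highest for 38.5% of all genes tested. Sham 1 was the lowest sham array for 8 of the 9, Ace being the exception, where it was the lowest for 35.1% of all genes. Among the DJB rats the order differed by gene. DJB 1, the highest DJB array in most genes of the table, was the highest for Ace alone and the lowest for 6 of the 9. DJB 3 was the lowest for Ace, Mep1a and Ggt1, by 0.37, 0.31 and 0.29 under the group mean, while it was 0.23 above it for Mme. Averaged over the 9 genes the level was 11.46 to 11.62 in DJB and 11.58 to 11.91 in sham, so the groups overlapped.

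Microvillus structural genes showed the same order of the sham rats. Of the 11 listed, 6 were measured, and their mean level was 10.77, 10.87 and 10.76 in DJB 1 to 3 and 10.73, 10.87 and 10.96 in sham 1 to 3, with sham 1 the lowest and sham 3 the highest array. Their part in the values of the 9 genes was not tested, but all arrays were also centred on them. On that scale Ace, Mme and Slc15a1 still lay wholly lower in DJB, and Anpep and Mep1b lay wholly higher, at differences of 0.11 and 0.28 that did not pass (adjusted p = 0.776 and 0.429). Of all genes 16.8% lay apart in either direction on that scale. Without sham 3 the same 5 genes had groups that did not overlap, against 29.2% of all genes. As sham 3 was the highest sham array for all 9 genes, leaving it out can only open gaps upward in DJB. Ace, Mme and Slc15a1 could not come to overlap. Without sham 1, Dpp4 instead lay wholly lower in DJB beside them, against 29.3% of all genes in either direction. With any other array left out no further gene lay apart.

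**Figure D3:**
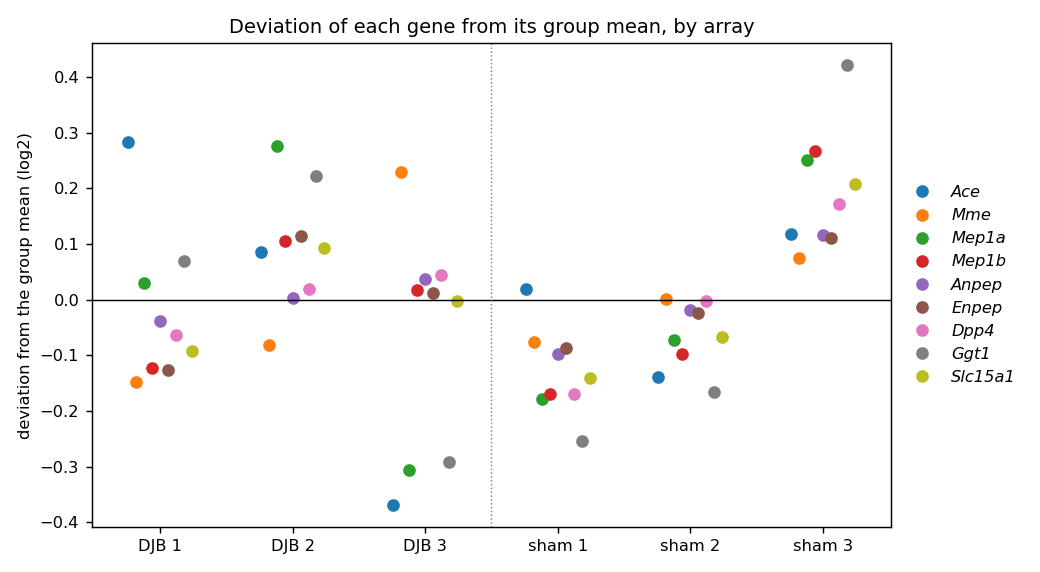
Deviation of each of the 9 genes (colours) from the mean of its own group (log2, vertical axis) on each array, DJB left and sham right. All 9 points of sham 3 lie above 0, up to 0.42 for Ggt1, while on DJB 3 Ace, Mep1a and Ggt1 lie lowest and Mme highest.

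For the 6 genes whose 6 arrays spanned at least 0.5, the genes with the most similar pattern were sought by Pearson's r over the 6 arrays. These values describe likeness and carry no test, since a shared group difference alone can raise them. Ace was followed most closely by Cd36, a fatty acid receptor gene that also fell (-0.98, limma adjusted p = 0.0252), at r = 0.997, then by Slc25a3 (0.995) and Abhd12 (0.992). Nearest to Mme were Pdk1 (0.996), the fructose transporter gene Slc2a5 (0.992) and Papss2 (0.992), and nearest to Slc15a1 were Pcgf5 (0.992), Otc (0.982) and Acsf2 (0.982). The 3 nearest to Mep1a were Inpp5a (0.988), Itprid2 (0.984) and Cdhr5 (0.982), a cadherin of the microvillus tip. Mep1b had Stub1 (0.996), Or3a1 (0.992) and Ing5 (0.980), and Ggt1 had Plaat5 (0.993), Scarf2 (0.990) and Serpina7 (0.988).

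Among the related lists, the genes that fell were transporters that work beside Slc15a1 in taking up the products of protein digestion. Of 14 listed and measured, 2 fell and none rose, against 0.379% and 0.393% of all genes. A lower mean in DJB was seen for 11, as for 5550 of the 14506 genes tested. The list was chosen with earlier results of these data known. In 5 of the 14 all DJB arrays lay below all sham arrays, against 6.56% of all genes. The median difference of the list was -0.16 (-0.36 without sham 1, -0.09 without sham 3 and -0.29 with dim genes left out).

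Slc36a1, a proton-coupled transporter of small neutral amino acids, had levels of 8.56, 7.72 and 8.06 in DJB 1 to 3, against 9.30, 9.57 and 9.26 in sham 1 to 3. It fell by 1.26 ± 0.19 (SE; limma adjusted p = 0.0260), or 2.40-fold. Slc7a8, the light chain of an exchanger of neutral amino acids at the basolateral membrane, lay at 8.70, 7.92 and 8.76 in DJB, against 9.62, 9.53 and 9.54 in sham. It fell by 1.10 ± 0.20 (SE; limma adjusted p = 0.0488), or 2.15-fold, and DJB 2 was the lowest array for both genes. Slc36a1 kept its call without DJB 1 alone and Slc7a8 without DJB 2 alone, and leaving out any other array ended them (adjusted p up to 0.101 and 0.167). The call of Slc7a8 was also lost with trend and robust eBayes (adjusted p = 0.0559).

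Further basolateral transporters lay lower in DJB without passing. Slc16a10, which carries aromatic amino acids, differed by -0.65 ± 0.14 (limma adjusted p = 0.0953). Slc3a2, the heavy chain that partners Slc7a8 and Slc7a7, differed by -0.35 ± 0.09 (adjusted p = 0.155), and Slc7a7, a light chain for cationic amino acids, by -0.34 ± 0.10 (adjusted p = 0.172). In all 3 the groups did not overlap. With trend and robust eBayes Slc16a10 (adjusted p = 0.0258) and Slc3a2 (0.0373) passed, and Slc16a10 also with dim genes left out (0.0462). With 1 array left out neither passed (adjusted p up to 0.277 and 0.358). Slc6a19, the apical transporter of neutral amino acids, overlapped at 11.35, 11.82 and 11.75 in DJB, against 11.45, 11.63 and 11.95 in sham. Its difference of -0.04 ± 0.16 (95% interval -0.41 to 0.33) had no stable sign, turning to 0.11 without DJB 1, 0.10 without sham 3, 0.08 with array weights and 0.01 relative to the microvillus genes. Slc9a3, the apical sodium-proton exchanger, varied widely, at 8.68, 7.80 and 6.83 in DJB and 9.35, 8.80 and 8.16 in sham, a difference of -1.003 ± 0.43 that did not pass (adjusted p = 0.338) and was -0.53 without DJB 3 and -1.46 without DJB 1. Cltrn, which binds Slc6a19, lay under the median of all rows, at 3.60 to 4.24 in DJB and 3.16 to 4.70 in sham. Its difference was -0.06 ± 0.33, and its sign turned without sham 3 (0.32) or DJB 3 (0.09) and with array weights (0.03).

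**Figure D4:**
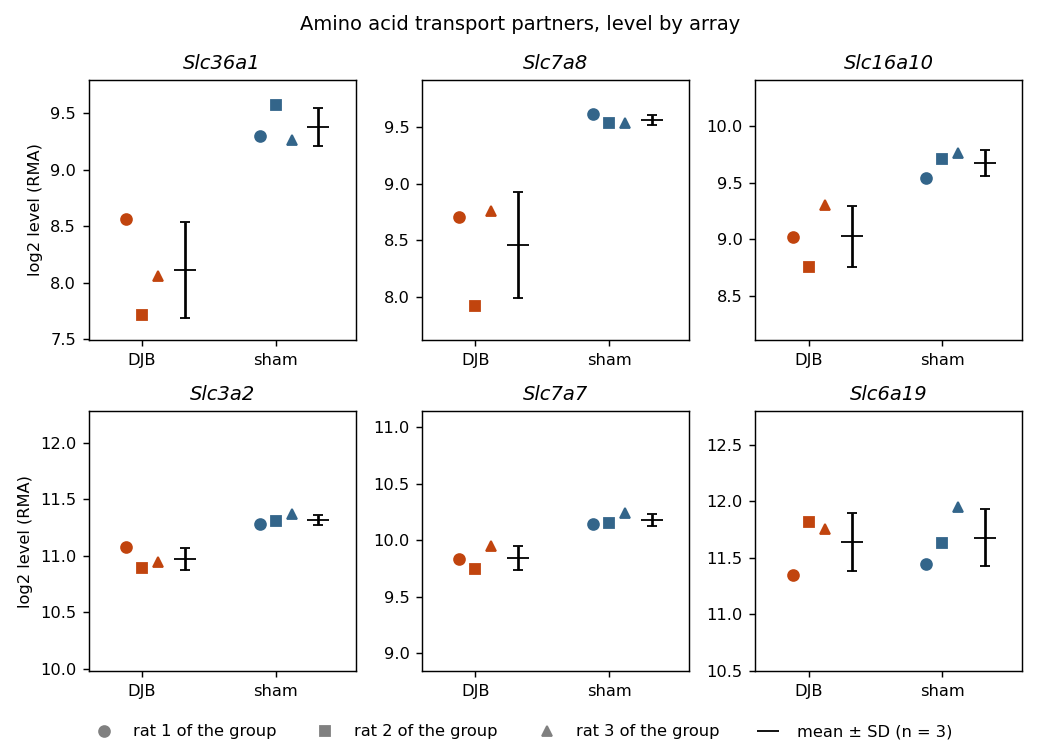
Log2 level (RMA, vertical axis) of 6 transporters of amino acids on each array, DJB left and sham right, with 1 marker shape per rat number and the mean ± SD of 3 arrays beside each group. Slc36a1 and Slc7a8 stand about 1.26 and 1.10 lower in DJB, the 3 basolateral genes Slc16a10, Slc3a2 and Slc7a7 lie lower without overlap, and Slc6a19 overlaps.

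No other peptidase measured passed the threshold. Among other brush border peptidases, 5 of 7 listed were measured, 4 with a higher mean in DJB, as 8956 of the 14506 genes tested had. The median difference was 0.15 (0.088 without DJB 2, and 0.018 over the 3 genes kept with dim genes left out). Xpnpep2, a membrane aminopeptidase that cuts before proline, differed by -0.18 ± 0.11 and Folh1 by 0.15 ± 0.09. Tmprss15, the enteropeptidase that activates trypsinogen in the duodenum, differed by 0.55 ± 0.34. Both Folh1 (3.99 to 4.16 in DJB, 3.87 to 3.95 in sham) and Tmprss15 (4.29 to 5.59 in DJB, 3.69 to 4.68 in sham) lay under the median of all rows. Folh1 alone of the 5 had groups without overlap, wholly higher in DJB, against 14.5% of all genes. The Tmprss15 difference was 0.18 without DJB 3, 0.25 without sham 1 and 0.83 without DJB 2. Among cytosolic peptidases, 13 of 14 were measured and the median was 0.02, which turned slightly negative (-0.01) when arrays were centred on their medians and was 0.0014 without sham 2 and 0.0512 without sham 1. Xpnpep1, which cuts before proline in the cytosol, had levels of 11.15, 10.91 and 11.05 in DJB, against 11.29, 11.69 and 11.70 in sham. Its groups did not overlap, and its difference of -0.52 ± 0.13 did not pass (limma adjusted p = 0.134), though it did with trend and robust eBayes (0.0378). With 1 array left out it never passed (adjusted p up to 0.337). Lap3, leucine aminopeptidase, differed by -0.24 ± 0.13, and Tpp2, which releases tripeptides, by 0.12 ± 0.09. Of the 13 cytosolic peptidases, 1 lay wholly lower in DJB (Xpnpep1) and 2 wholly higher (Tpp2 and Npepps), against 6.56% and 14.5% of all genes.

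The gamma-glutamyl cycle around Ggt1 had 9 measured genes, none past the threshold, with a median difference of 0.08 that has no stable sign (-0.0041 without DJB 1, -0.0296 without DJB 3 and -0.0103 without sham 2). Gclm, the modifier subunit of the enzyme that starts glutathione synthesis, had the lowest p at -0.41 ± 0.13 (limma adjusted p = 0.210), with levels of 8.45, 8.47 and 8.41 in DJB, against 8.74, 8.68 and 9.15 in sham. Its groups did not overlap. The related transferases Ggt5 and Ggt6 differed by 0.10 ± 0.09 and 0.11 ± 0.11. Ggt5 lay wholly higher in DJB, so 1 gene of the 9 lay wholly lower and 1 wholly higher, against 6.56% and 14.5% of all genes.

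The genes of the microvillus core had none past the threshold and a median of -0.07, between -0.12 without DJB 2 and -0.0012 without sham 3. Vil1, villin, differed by -0.01 ± 0.10, with a sign that turned to 0.04 relative to the list itself, 0.0025 with array weights, and 0.01 to 0.03 without DJB 1, DJB 2, sham 2 or sham 3. Ezr, ezrin, differed by -0.18 ± 0.12, Pls1 by 0.13 ± 0.13 (-0.01 without sham 1) and Ush1c by -0.10 ± 0.12 (0.01 without sham 3).

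Transcription factors of the absorptive cell were measured in 7 of 10 listed. None passed, and the median was -0.13 (-0.0108 without sham 3). Gata4, a factor of the upper small intestine, lay at 6.95, 5.97 and 6.55 in DJB, against 7.83, 7.82 and 7.36 in sham. Its groups did not overlap, and its difference of -1.18 ± 0.23 lay outside the threshold (limma adjusted p = 0.0643). It passed without DJB 1 (0.0289), with arrays centred on their medians (0.0454) or on the microvillus list (0.0054), with dim genes left out (0.0339) and with array weights (0.0211). It did not pass with the replicate number as a block (0.111), after another quantile normalisation (0.0546), with trend and robust eBayes (0.0681) or without any other array (up to 0.1905). Creb3l3, a factor of lipid and fasting metabolism, differed by -0.56 ± 0.16, Hnf4g by -0.18 ± 0.10, Hnf4a by 0.15 ± 0.09 and Cdx2 by 0.03 ± 0.10. Of the 7 factors, 3 lay wholly lower in DJB (Gata4, Creb3l3 and Hnf4g) and 1 wholly higher (Hnf4a), against 6.56% and 14.5% of all genes. Cdx2 turned to -0.005 with arrays centred on their medians and to -0.03 and -0.01 without DJB 2 and sham 2.

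Of 5 listed markers of the upper small intestine, 4 were measured. Of these, 3 had a lower mean in DJB, as 5550 of the 14506 genes tested had, and 2 fell, against 0.379% of all genes. Those that fell were the folate transporter gene Slc46a1, with a difference of -2.38 ± 0.29 (limma adjusted p = 0.00986), and the calcium-binding protein gene S100g, with -1.10 ± 0.13 (limma adjusted p = 0.00938). Fabp1 differed by -0.24 and Cybrd1 by 0.18, and neither passed. The mean level of the 4 was 8.38 to 8.78 in DJB and 9.27 to 9.52 in sham. The 3 ileal markers measured were higher in DJB, at mean levels of 12.8 to 13.0 in DJB and 11.8 to 12.3 in sham, and Slc10a2, the bile acid transporter gene, rose by 1.73 ± 0.22 (limma adjusted p = 0.0106). Fibroblast markers had a median difference of 0.52, with none of the 5 past the threshold. Their mean levels were 8.99 to 9.57 in DJB and 8.89 to 9.22 in sham, and the groups of every marker overlapped. Col1a1, Lum and Col3a1 differed by 0.71, 0.56 and 0.52, while Pdgfra and Dcn differed by -0.17 and -0.10. An unadjusted limma p under 0.05 was seen for 3 of the 5, against 14.3% of all genes. The 5 macrophage markers, none past the threshold, had mean levels of 7.52 to 7.77 in DJB and 7.32 to 7.44 in sham, without overlap. The 5 absorptive cell markers, none past the threshold, had a median difference of -0.13. The apolipoprotein gene Apoa4 stood apart from the rest at -0.91 ± 0.17 (limma adjusted p = 0.0511). Alpi, Fabp2 and Si differed by -0.14, -0.13 and -0.09, and Krt20 by 0.11. The part of these markers in the values of the 9 genes was not tested.

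Peptides that these enzymes cut, and their receptors, were followed in 17 genes, none past the threshold, with a median of 0.09 that was 0.0212 without sham 1, 0.21 without sham 3 and -0.0126 over the 8 genes kept when dim genes were left out. Npy, neuropeptide Y, lay at 8.24, 8.05 and 7.75 in DJB, against 7.35, 7.43 and 7.52 in sham. Its difference of 0.58 ± 0.13, without overlap, did not pass (limma adjusted p = 0.105), though it did relative to the microvillus list (0.0347) and with trend and robust eBayes (0.0334). With 1 array left out it never passed (adjusted p up to 0.268). Gip, the incretin of the upper gut and a substrate of Dpp4, differed by -0.49 ± 0.14 (adjusted p = 0.165), at levels of 5.46 to 5.82 in DJB and 5.90 to 6.32 in sham, near or under the median of all rows. Glp2r, the receptor of an intestinal growth hormone that Dpp4 inactivates, differed by -0.34 ± 0.12 (adjusted p = 0.262). Of the 17 genes, 2 lay wholly lower in DJB (Gip and Glp2r) and 2 wholly higher (Npy and Glp1r), against 6.56% and 14.5% of all genes.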

How the data were processed

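The study's deposited table holds log2 values of 29214 rows on 6 arrays, made by the authors with RMA, per the submitters' processing notes, which give no version. No coordinates of the rows are printed, as their genome build was not given in the sources used here. Values were used as deposited. Of the rows, 15310 carried 1 gene symbol in the platform annotation, and 323 with several and 13581 with none were left out. The row with the highest mean stood for a gene with several rows (527 genes), which left 14506 genes.

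DJB was compared with sham by limma 3.58.1 in R 4.3.3 (two-sided, lmFit and eBayes, with neither a covariate nor a filter on dim rows). P-values were adjusted over all genes by Benjamini-Hochberg, and the threshold was 0.05. Intervals are 95% intervals of that fit. The fit was also run on simulated data with noise drawn independently for each gene and array. Those data hold no shifts shared by the genes of an array, so they cannot show how the fit does with such shifts. The members and lists were chosen with earlier results of these data known. All 9 members were named, and of each list the genes called, up to 3 more of lowest p and a few in any case. Endothelial, T cell, smooth muscle, upper intestinal, ileal, absorptive, fibroblast and macrophage markers stand beside the members. Of the marker lists for absorptive, goblet, crypt, fibroblast, B cell, macrophage, neutrophil, fat and pancreas cells none had a gene past the threshold. Another planned within-array difference was not run. Motifs were searched in RefSeq promoters (GRCr8), which matched all 9 members by symbol. Figures were drawn with matplotlib 3.10.9.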

Additional observations from a re-analysis of the deposited data

How the results depend on the processing

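Over all genes 112 were called. The count was 50 with the replicate number as a block (replicate block), 179 relative to the microvillus list, 225 with dim genes left out, 313 with trend and robust eBayes, 173 with array weights, and 33 to 108 with 1 array left out. Of the 9 members 1 was called, 0 with the replicate block, 2 with trend and robust eBayes (Ace and Mme), and 0 to 1 with 1 array left out. Of the 71 genes in the related lists 2 were called, 0 with the replicate block, 4 relative to the microvillus list, 4 with dim genes left out, 5 with trend and robust eBayes, and 0 to 2 with 1 array left out. Members without overlap numbered 3, 5 relative to the microvillus list, and 3 to 5 with 1 array left out. Mep1a minus Mep1b ran from -0.47 to -0.22 and Anpep minus Enpep from -0.0563 to 0.043 with 1 array left out.

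Ace was -0.98 with the replicate block (adjusted p = 0.103). Same-numbered rats did not deviate together (correlations of 0.005, -0.12 and -0.15, and 1 of 6 arrays correlated best with its own number). So few arrays cannot show that these rats shared only a number, and the labels do not say. With the replicate block the limma adjusted p of Slc9a3 was 0.055. Signs turned for Anpep (-0.0171) and Enpep (-0.0095) after another quantile normalisation, for Cdx2 (-0.0049) with arrays centred on their medians, for Ggt1 (0.025), Vil1 (0.0439) and Slc6a19 (0.0138) relative to the microvillus list, and for Ggt1 (0.0684), Vil1 (0.0025), Slc6a19 (0.0757) and Cltrn (0.0314) with array weights. With 1 array left out, Ggt1 ran from -0.15 to 0.18, Vil1 from -0.0559 to 0.0252, Cdx2 from -0.0285 to 0.082, Slc6a19 from -0.15 to 0.11, Cltrn from -0.45 to 0.32, Pls1 from -0.0063 to 0.2004 and Ush1c from -0.1563 to 0.0076. The cause of these turns was not tested. Of the 126 alternatives run for the 9 members, 114 kept both direction and side of the threshold, 5 lost a call, 1 gained a call and 6 turned sign. This total is no measure of how firm the results are. The replicate block, dim genes left out, trend and robust eBayes and the mean of a gene's rows leave each member's difference unchanged, so they could not turn a sign. Members not called at first had no call to lose, and all 5 lost calls were of Ace.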
